A study of Mus musculus with 12 samples.

Results

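The genes described here encode enzymes that oxidise or conjugate small molecules: the cytochrome P450 enzymes (Cyp), the flavin-containing monooxygenases (Fmo), the aldehyde dehydrogenases (Aldh), the cytosolic glutathione S-transferases (Gsta, Gstm, Gstt, Gstp and Gsto) and the paraoxonases (Pon). They were taken by symbol from a table of read counts for 33352 genes, leaving out symbols marked as pseudogenes, which gave 142 genes. Of these, 53 were in P450 families 1 to 3, 20 in P450 family 4, 18 in P450 families 5 and above, 7 were Fmo, 4 Aldh1a, 17 other Aldh, 4 Gsta, 7 Gstm, 9 Gstt, Gstp or Gsto, and 3 Pon. The counts come from poly(A) RNA of 4 populations that were isolated by flow cytometry out of digested aorta with its perivascular fat, from adult wild-type male CD-1 mice, an outbred strain, at 13 weeks of age. The labels call them smooth muscle cell populations SMC2 and SMC1, intermediate cells (Intermediate) and progenitor cells (Progenitor), with 3 libraries each and no treatment or transgene. The antibodies and gates of the sort are not given in the sources used here, and the labels number the libraries without saying whether each is a separate animal. What a p-value measures here is thus the variation among libraries, and that variation could be technical.

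P450 enzymes insert oxygen into lipids, steroids, retinoids and foreign compounds with electrons passed on by a reductase, and flavin monooxygenases oxidise nitrogen and sulfur in amines and thiols. Aldehyde dehydrogenases turn aldehydes into acids, among them retinaldehyde into retinoic acid, and glutathione transferases couple glutathione to reactive molecules such as lipid peroxidation products. Paraoxonases are calcium-dependent lactonases. The liver is the best known site of most of these enzymes, but the vessel wall and fat also express some of them.

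The libraries held 13258631 to 22647175 counts. The smooth muscle markers Acta2, Myh11, Cnn1, Tagln and Des summed to 18177 to 26120 CPM (read counts relative to library size, with edgeR's TMM factors) in SMC2 and 27595 to 33094 in SMC1, against 345.1 to 461.7 in Intermediate and 194.8 to 462.6 in Progenitor. The fibroblast and progenitor markers Pdgfra, Cd34, Dpp4, Pi16, Ly6a and Col1a1 ran the other way, at 115 to 262.6, 674.8 to 1174, 9828 to 13819 and 9348 to 11317 CPM in the same 4 populations, so both sides of the labels matched their markers. SMC2 replicate 3 stood apart, with 4577 CPM in genes that were too low to test, against 1069 to 2699 CPM in the other libraries.

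A total of 84 of the 142 genes passed a filter on low counts and were tested together with all 19016 genes that passed it. A gene was called when edgeR's quasi-likelihood test gave a Benjamini-Hochberg adjusted p below 0.05, and changes are log2 with their standard error. In SMC2 against SMC1, 23 of the 84 were higher and 23 lower, where 16.5% of all tested genes were higher and 18.1% lower. Intermediate cells had 14 higher and 10 lower than Progenitor cells, against a background of 12.7% higher and 9.46% lower. That split moved to 13 higher and 17 lower with upper-quartile factors, and to 13 higher and 16 lower with only these populations fitted. For SMC1 against Progenitor the counts were 10 higher and 37 lower, with 25.3% and 23.1% of all genes called in those directions. Without SMC1 replicate 1, they were 5 higher and 36 lower. Among the SMC1 libraries, this one had the highest sums of leukocyte (576.3 CPM), fibroblast, endothelial, mesothelial and Schwann cell markers. SMC2 had 15 higher and 34 lower than Progenitor, where 23.1% and 21.7% of all genes were called. Against Intermediate, 8 were higher and 35 lower in SMC1 (background 19.7% and 21.9%), and 17 higher and 34 lower in SMC2 (background 21.4% and 23.2%). The median change of the 84 was -0.67 in SMC1 against Progenitor and -0.33 in SMC2 against Progenitor, where the median of all genes was -0.00 and 0.06. It was 0.14 in SMC2 against SMC1 and -0.08 in Intermediate against Progenitor, where the median of all genes was -0.00 and 0.08. Without SMC2 replicate 3, SMC2 had 42 called genes against SMC1, 45 against Progenitor and 45 against Intermediate, where all libraries gave 46, 49 and 51. The comparisons share libraries, so their counts are not independent. In bulk RNA from sorted cells, fewer cells of a type and less RNA per cell cannot be told apart.

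**Figure D1:**
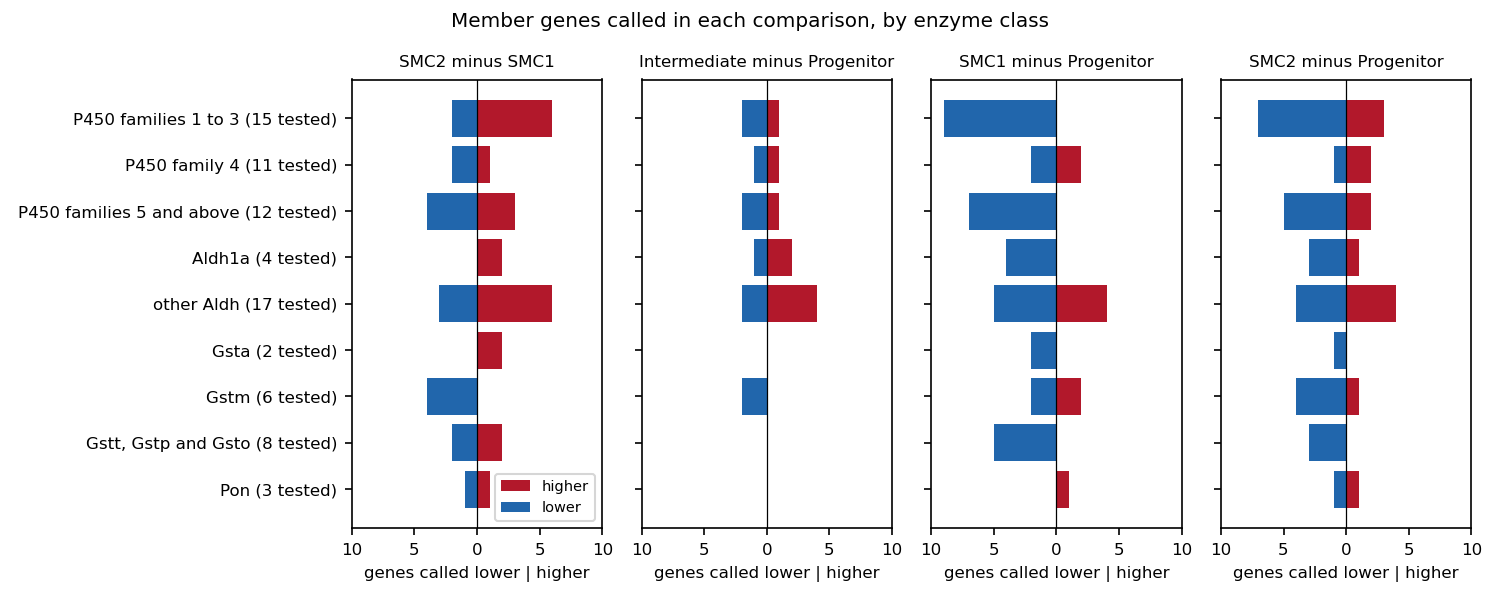
Number of genes called lower (left, blue) or higher (right, red) in each of 4 comparisons, for each enzyme class (rows, with the number tested), at an adjusted p below 0.05. The flavin monooxygenases are not drawn. The Aldh1a row has all 4 genes lower in SMC1 than in Progenitor, and the row of P450 families 1 to 3 has 9 lower there.

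Summed over the 84 genes, the level was 3285 to 3712 CPM in SMC2, 5441 to 6174 in SMC1, 9974 to 11788 in Intermediate and 6071 to 6111 in Progenitor. Flavin monooxygenases, Fmo2 foremost, held a large part of the Intermediate sum, so its lead is not a trait of every class. Mean sums of the Gstm genes were 715.3, 1386, 1213 and 1155 CPM in SMC2, SMC1, Intermediate and Progenitor. P450 families 1 to 3 summed to 428.7, 164.1, 670.1 and 713.4, and the other Aldh genes to 811.2, 1011, 1059 and 873.5. By population of highest mean, 20 of the 84 genes peaked in SMC2, 11 in SMC1, 29 in Intermediate and 24 in Progenitor. Per kilobase of exon, the highest gene was Gstm1 in SMC2 (363.9 CPM per kb), SMC1 (653.2) and Progenitor (446.8), and Fmo2 in Intermediate (677.5). Cyp2e1 ranked behind Gstm1 and Gstp1 in SMC2, at 132.1 CPM per kb.

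**Figure D2:**
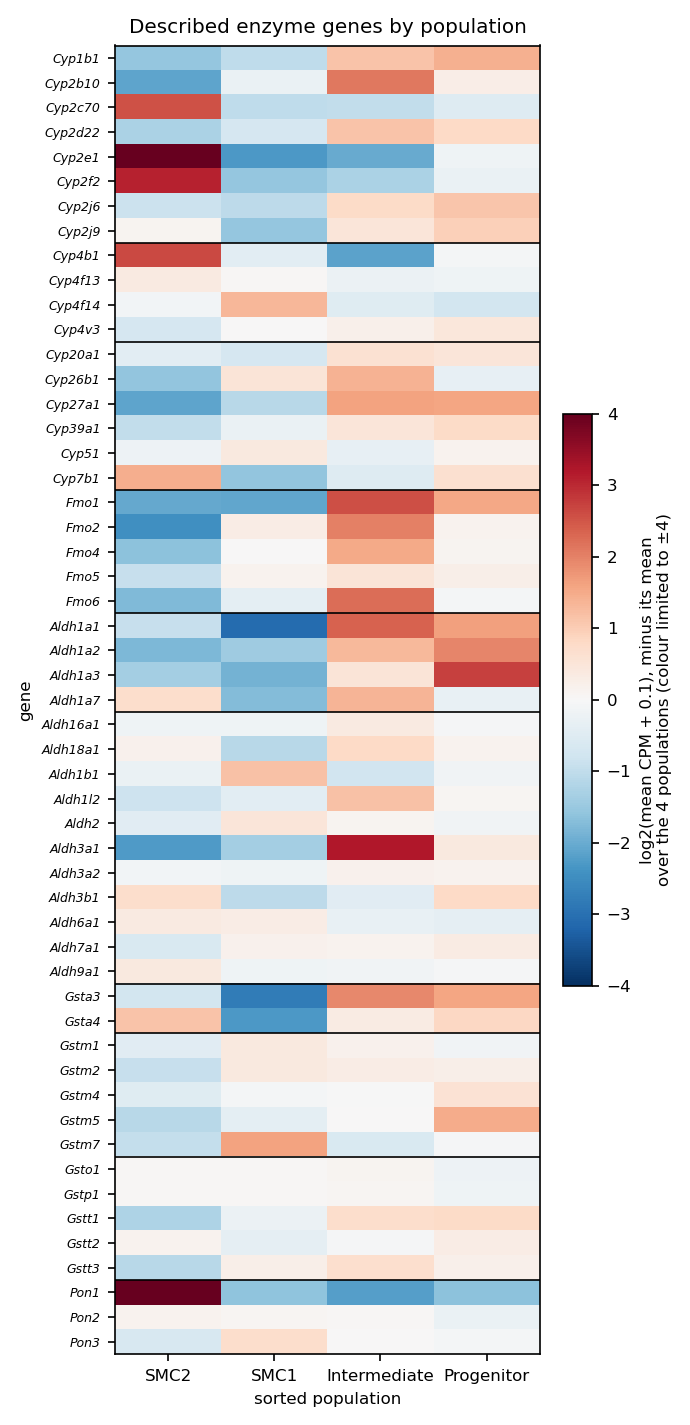
Heat map of 53 genes (rows, grouped by enzyme class) in the 4 populations (columns). Colour is the log2 of the mean CPM plus 0.1 in a population minus the mean of that value over the 4 populations, with the scale limited to 4 on each side. Pon1, Cyp2e1 and Cyp2f2 are high in SMC2, Fmo1, Fmo2 and Aldh3a1 in Intermediate, and Aldh1a3 and Gstm5 in Progenitor.

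The 5 promoters below belong to 3 genes that were highest in SMC2, to Pon3 and to Fmo2. Pon1, Cyp2e1 and Cyp4b1 were highest in SMC2, Pon3 lies beside Pon1 but was lowest in SMC2, and Fmo2 was the most abundant gene of the set per kilobase in Intermediate. Each run covers 250 bases before and 50 after the gene's start in RefSeq (build GRCm38.p6), read 5′ to 3′ on the gene's strand. The positions are chr6:5193897-5194196 (minus strand) for Pon1, chr6:5256184-5256483 (minus) for Pon3, chr7:140763569-140763868 (plus) for Cyp2e1, chr4:115647672-115647971 (minus) for Cyp4b1 and chr1:162898709-162899008 (minus) for Fmo2, the second of whose 2 RefSeq windows is not shown. Capitals mark matches to 4 motifs. The core of the xenobiotic response element was searched as GCGTG on both strands. The nuclear receptor site was searched as AGGTCA on both strands. The core of the antioxidant response element was searched as TGACNNNGC on both strands, and the TATA box as TATAAA on the gene's strand.
Pon1: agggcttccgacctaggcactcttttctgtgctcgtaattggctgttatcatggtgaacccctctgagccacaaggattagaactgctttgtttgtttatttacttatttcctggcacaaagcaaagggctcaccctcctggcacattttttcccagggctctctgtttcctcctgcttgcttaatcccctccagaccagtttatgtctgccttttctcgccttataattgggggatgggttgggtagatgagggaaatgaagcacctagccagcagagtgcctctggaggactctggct
Pon3: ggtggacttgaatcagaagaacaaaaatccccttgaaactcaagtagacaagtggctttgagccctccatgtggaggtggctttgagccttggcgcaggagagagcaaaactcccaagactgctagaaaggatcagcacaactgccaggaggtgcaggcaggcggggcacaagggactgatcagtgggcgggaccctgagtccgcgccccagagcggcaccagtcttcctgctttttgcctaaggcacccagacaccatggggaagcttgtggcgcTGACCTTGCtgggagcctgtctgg
Cyp2e1: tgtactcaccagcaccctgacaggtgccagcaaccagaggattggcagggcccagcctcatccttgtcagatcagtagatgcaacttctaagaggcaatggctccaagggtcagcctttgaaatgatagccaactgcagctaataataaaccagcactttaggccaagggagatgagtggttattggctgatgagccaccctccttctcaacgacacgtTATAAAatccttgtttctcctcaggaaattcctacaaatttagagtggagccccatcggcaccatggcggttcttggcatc
Cyp4b1: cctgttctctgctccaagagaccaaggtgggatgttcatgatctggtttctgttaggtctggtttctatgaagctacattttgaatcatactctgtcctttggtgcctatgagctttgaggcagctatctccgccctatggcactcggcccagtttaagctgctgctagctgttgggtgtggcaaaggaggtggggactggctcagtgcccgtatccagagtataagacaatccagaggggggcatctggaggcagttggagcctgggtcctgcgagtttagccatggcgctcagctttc
Fmo2: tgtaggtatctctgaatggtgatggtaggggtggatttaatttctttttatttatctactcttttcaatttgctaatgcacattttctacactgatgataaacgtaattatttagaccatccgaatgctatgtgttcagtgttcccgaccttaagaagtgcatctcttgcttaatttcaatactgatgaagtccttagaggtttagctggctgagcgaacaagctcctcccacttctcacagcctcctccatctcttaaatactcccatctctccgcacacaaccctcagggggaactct
Pon3 held the antioxidant response core and, in overlapping letters on the other strand, the nuclear receptor site. Cyp2e1 held the TATA box. None of the 4 motifs was in the windows of Pon1, Cyp4b1 and Fmo2. Over all 32817 windows, 32.4% held the xenobiotic response core, 16.3% the nuclear receptor site, 12.4% the antioxidant response core and 8.32% the TATA box. Of 129 windows for 111 of the 142 genes, 24% held the xenobiotic response core, 20.9% the nuclear receptor site, 10.9% the antioxidant response core and 22.5% the TATA box. These are matches of letters and say nothing of binding.

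Of the flavin monooxygenases, Fmo1, Fmo2, Fmo4, Fmo5 and Fmo6 are described here, and Fmo9 was too low to test. Fmo1, Fmo2, Fmo4 and Fmo6 lie in a cluster on the minus strand of chromosome 1 (162793188 to 162937515, GRCm38), and Fmo5 lies on chromosome 3 (97628804 to 97655282). In Intermediate, Fmo1, Fmo2, Fmo4 and Fmo6 were all higher than in Progenitor, and in SMC2 all of these 5 genes were lower than in Progenitor.

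Fmo2, known best as the lung form of the enzyme, had 102.5, 239.9 and 168.1 CPM in SMC2, 1000, 1225 and 1213 in SMC1, 4102, 3582 and 3716 in Intermediate, and 877.9, 1116 and 1091 in Progenitor (replicates 1, 2 and 3). The Intermediate libraries were above all others and the SMC2 libraries below all others, while SMC1 and Progenitor overlapped. The change was 1.89 ± 0.24 for Intermediate minus Progenitor (edgeR, adjusted p = 1.13e-05) and -2.75 ± 0.25 for SMC2 minus SMC1 (adjusted p = 4.05e-08). SMC1 and Progenitor did not differ beyond their spread (adjusted p = 0.606 in edgeR's test).

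Fmo1, which oxidises amines in liver and kidney, was a gene of Intermediate and Progenitor. Its levels were 29.1, 54.2 and 62.3 CPM in SMC2, 55.7, 46 and 42.7 in SMC1, 1374, 1140 and 1125 in Intermediate, and 609.8, 628.9 and 556.4 in Progenitor. Both smooth muscle populations lay below the others, with changes against Progenitor of -3.62 ± 0.24 in SMC2 (edgeR, adjusted p = 1.23e-10) and -3.64 ± 0.24 in SMC1 (1.21e-10), and they overlapped each other. Intermediate exceeded Progenitor by 1.02 ± 0.22 (edgeR, adjusted p = 0.00213). SMC1 thus lay with SMC2 for Fmo1 and with Progenitor for Fmo2.

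Fmo4 and Fmo6 were much lower and peaked in Intermediate. Fmo6 averaged 0.745 ± 0.333 CPM in SMC2, 2.09 ± 1.06 in SMC1, 13.6 ± 1.58 in Intermediate and 2.67 ± 0.15 in Progenitor (SD, n = 3 each). The change for Intermediate minus Progenitor was 2.34 ± 0.34 for Fmo6 and 1.45 ± 0.32 for Fmo4. Without SMC2 replicate 2, the change of Fmo4 in SMC2 minus Progenitor was -2.49, against -1.86 with all libraries. Fmo5, which is known for oxidising ketones, averaged 10.5 ± 1.72 CPM in SMC2, 22.1 ± 3.13 in SMC1, 28.8 ± 6.88 in Intermediate and 23.5 ± 1.8 in Progenitor, and was called only in the 3 comparisons that include SMC2.

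**Figure D3:**
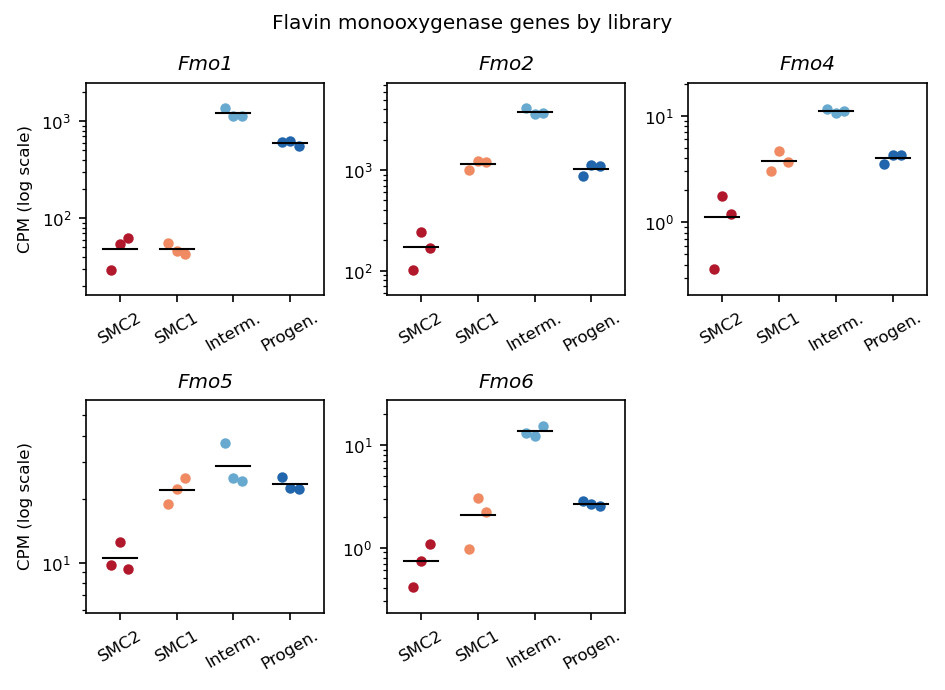
Level of Fmo1, Fmo2, Fmo4, Fmo5 and Fmo6 in CPM (log axis) in every library (points) with the mean of 3 (bar), for SMC2, SMC1, Intermediate and Progenitor from left to right. The mean is highest in Intermediate for all 5 genes, and SMC2 has the lowest mean for all but Fmo1, where SMC1 and SMC2 overlap.

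The mesothelial markers Upk3b, Upk1b, Msln, Lrrn4, Krt8 and Krt19 moved with Fmo1, Fmo2, Fmo4 and Fmo6 between Intermediate and Progenitor. Of the list of 7, 6 were higher and Wt1 was lower in Intermediate (12.7% and 9.46% of all tested genes). The summed level was 174.9, 160.3 and 390.6 CPM in Intermediate against 37.9, 65.3 and 53.2 in Progenitor, and none was at 0 in either population. The 5 pericyte markers summed to 540.2 to 563.8 CPM in Intermediate and 166.7 to 260.7 in Progenitor, with 2 higher, 0 lower and 3 not called. The Intermediate library with the highest mesothelial sum, replicate 3, was the highest Intermediate library for Fmo6 but not for Fmo1, Fmo2, Fmo4 or Fmo5. In SMC2, replicate 1 was lowest for Fmo1, Fmo2, Fmo4 and Fmo6, and its fibroblast markers summed to 115 CPM, against 236.2 and 262.6 in the other SMC2 libraries. No call of these genes was lost under any of 18 alternative settings, including those without Intermediate replicate 3 or SMC2 replicate 1. Without Intermediate replicate 3, the other Intermediate libraries still had mesothelial sums of 174.9 and 160.3 CPM, against 37.9 to 65.3 in Progenitor. Leaving out a library thus cannot separate these genes from the markers. The part of these markers in the levels of these genes was not tested.

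The paraoxonase genes Pon1, Pon2 and Pon3 lie together on chromosome 6 (5168090 to 5298455) and had 3 different patterns. Pon1, whose protein travels on high-density lipoprotein and is made mainly in liver, had 78.7, 127.2 and 124.7 CPM in SMC2, 1.02, 0.373 and 0.82 in SMC1, 0.311, 0.565 and 0.511 in Intermediate, and 0.957, 0.533 and 0.695 in Progenitor. The SMC2 libraries were all at 78.7 CPM or more and the other 9 libraries at 1.02 CPM or less. The change was 7.23 ± 0.30 for SMC2 minus SMC1 (edgeR, adjusted p = 9.83e-13) and 7.19 ± 0.30 for SMC2 minus Progenitor (1.91e-13). SMC1, Intermediate and Progenitor were not called apart.

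Pon3, an intracellular and lipoprotein-bound lactonase, was lowest in SMC2. It had 64.2, 102.1 and 83 CPM in SMC2, 215.8, 217 and 200.3 in SMC1, 147.1, 121.5 and 119.7 in Intermediate, and 141.8, 114.6 and 108.8 in Progenitor. SMC1 stood above all other libraries, by 0.79 ± 0.18 over Progenitor (edgeR, adjusted p = 9.60e-04), and SMC2 was below SMC1 by -1.34 ± 0.18 (5.34e-06). The smaller change for SMC2 minus Progenitor, -0.55 ± 0.18 (edgeR, adjusted p = 0.0154), was lost without SMC2 replicate 1 (0.0502), without Progenitor replicate 1 (0.0839) and with only these populations fitted (0.0568). Pon2, the intracellular paraoxonase, averaged 102.4 ± 17.5 CPM in SMC2, 98.2 ± 7.63 in SMC1, 95 ± 21.6 in Intermediate and 77 ± 17.7 in Progenitor (SD, n = 3 each) and was called in no comparison.

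In P450 families 1 to 3, which hold most enzymes of drug and steroid oxidation, 15 of 53 genes were tested. SMC2 had 6 higher and 2 lower than SMC1, and 3 higher and 7 lower than Progenitor. SMC1 had 0 higher and 9 lower than Progenitor, and Intermediate had 1 higher and 2 lower. Shares of all tested genes called were 16.5% and 18.1%, 23.1% and 21.7%, 25.3% and 23.1%, and 12.7% and 9.46%, in this order. The median change of the 15 was 1.63 in SMC2 minus SMC1 and -2.19 in SMC1 minus Progenitor, where the medians of all genes were -0.00 in both. A gene can pass the filter through 1 population alone, as Cyp2c70 did through SMC2. These counts and medians thus describe a selected part of the class.

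Cyp2e1, which oxidises ethanol and other small molecules (chromosome 7, 140763739 to 140774987), had 245.3, 288.7 and 321.4 CPM in SMC2, 4.07, 0.933 and 2.46 in SMC1, 4.35, 2.2 and 2.75 in Intermediate, and 10.3, 14.3 and 9.29 in Progenitor. The SMC2 libraries lay far above the others, and Progenitor lay above SMC1 and Intermediate. In edgeR's test the change was 6.85 ± 0.39 for SMC2 minus SMC1 (adjusted p = 1.64e-09), 4.66 ± 0.34 for SMC2 minus Progenitor (7.92e-09) and -1.86 ± 0.35 for Intermediate minus Progenitor (0.00116). Its change of -2.19 ± 0.35 in SMC1 minus Progenitor was -2.84 without SMC1 replicate 1.

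Cyp2f2, known from the airway cells that activate naphthalene, also peaked in SMC2, at 7.96, 21.6 and 23.9 CPM, against 0.102, 0.0933 and 1.7 in SMC1, 0.684, 1.26 and 0.447 in Intermediate, and 1.91, 1.67 and 1.39 in Progenitor. No other library reached the SMC2 levels. The change for SMC2 minus SMC1 was 4.90 ± 0.72 (edgeR, adjusted p = 1.01e-04), and 7.39 without SMC1 replicate 3 or 4.32 without SMC1 replicate 2. A gene model on the other strand, Gm15883, covers 13.5% of its exon bases. Cyp2c70, a bile acid hydroxylase of mouse liver, had 2.16, 1.04 and 0.66 CPM in SMC2, against 1 count in all of SMC1, 1 in all of Intermediate and 3 in all of Progenitor.

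The adipocyte markers Adipoq, Plin1, Cidec, Lep, Adrb3 and Ucp1 moved with Pon1, Cyp2e1 and Cyp2f2 between SMC2 and SMC1. Of the list of 7, 6 were higher and Plin4 was lower in SMC2 (16.5% and 18.1% of all tested genes). Adipoq averaged 90.2 ± 27.8 CPM in SMC2, 1.23 ± 0.744 in SMC1, 0.483 ± 0.131 in Intermediate and 4.39 ± 2.39 in Progenitor (SD, n = 3 each). The whole list summed to 255.3 to 285.1 CPM in SMC2, 183 to 221.3 in SMC1, 4.97 to 6.32 in Intermediate and 8 to 15.4 in Progenitor, with Plin4 alone at 192.9 in SMC1 and no marker at 0 in any population. The Schwann cell markers Sox10 (2.04), S100b (0.98) and Cdh19 (2.19) were higher in SMC2 than in SMC1 as well, as log2 changes. The part of these cells in the enzyme levels was not tested.

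The genes Cyp1b1, Cyp2b10, Cyp2j6, Cyp2j9 and Cyp2d22 had their highest means in Progenitor or Intermediate. Cyp1b1, which oxidises oestrogen and polycyclic hydrocarbons (chromosome 17, 79701537 to 79715061), had 44.2, 73 and 72.8 CPM in SMC2, 85.7, 87.2 and 105.1 in SMC1, 436.3, 385.3 and 417.9 in Intermediate, and 508.5, 351.8 and 622.9 in Progenitor. The populations fell into a low pair, SMC2 and SMC1, and a high pair whose libraries overlapped. The change was -2.97 ± 0.23 for SMC2 minus Progenitor (edgeR, adjusted p = 9.74e-10) and -2.42 ± 0.22 for SMC1 minus Progenitor (1.58e-08). SMC2 minus SMC1, at -0.55 ± 0.22, missed the threshold (edgeR, adjusted p = 0.0538) and was called under 8 of 18 alternatives.

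Cyp2b10, which is known in mouse liver as a target of the receptor CAR, was a gene of Intermediate. It had 1.47, 5.83 and 4.62 CPM in SMC2, 10.1, 18.1 and 15.2 in SMC1, 67, 84.6 and 76.3 in Intermediate, and 16.3, 26.8 and 20 in Progenitor. Every Intermediate library exceeded every other one, by 1.86 ± 0.32 over Progenitor (edgeR, adjusted p = 6.36e-04). Of the arachidonic acid epoxygenase family, Cyp2j6 averaged 18 ± 1.49 CPM in SMC2, 15.5 ± 0.269 in SMC1, 55.7 ± 6.75 in Intermediate and 70.6 ± 17.2 in Progenitor, and Cyp2j9 averaged 14.3 ± 1.64, 4.39 ± 1.09, 18.6 ± 0.888 and 25.4 ± 6.17 CPM in the same populations (SD, n = 3 each). Both were lower in SMC1 than in Progenitor, by -2.19 and -2.53, and Cyp2j9 was higher in SMC2 than in SMC1, by 1.70. Cyp2d22 averaged 17.1 ± 1.02 CPM in SMC2, 25.4 ± 4.38 in SMC1, 89.5 ± 21.9 in Intermediate and 71.2 ± 12 in Progenitor. Its change of -0.57 for SMC2 minus SMC1 was lost under 5 alternatives, among them the fits without SMC1 replicate 1, SMC1 replicate 3, SMC2 replicate 1 or SMC2 replicate 3 (adjusted p up to 0.0999 in edgeR's test).

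Family 4 of the P450 enzymes hydroxylates fatty acids and leukotrienes, and 11 of its 20 genes were tested. Cyp4b1 (chromosome 4, 115624725 to 115647723) had 160.9, 147 and 140.6 CPM in SMC2, 30.5, 11.9 and 11.2 in SMC1, 4.78, 7.22 and 3.96 in Intermediate, and 22.6, 19.6 and 25.2 in Progenitor. The SMC2 libraries were highest and the Intermediate libraries lowest, while SMC1 and Progenitor overlapped. In edgeR's test it was higher in SMC2 than in SMC1 by 3.06 ± 0.32 (adjusted p = 1.17e-06), and by 3.69 without SMC1 replicate 1. The 8 leukocyte markers summed to 576.3 CPM in that library, 482.3 of them from Lyz2, against 124.2 and 136.2 in the other SMC1 libraries. Its fibroblast (1174 CPM), endothelial (344.3), mesothelial (56.1) and Schwann cell (37.7) sums were also the highest in SMC1, but not its smooth muscle, adipocyte or pericyte sums. The part of these markers in the level of Cyp4b1 was not tested. Cyp4b1 was lower in Intermediate than in Progenitor by -2.08 ± 0.33 (edgeR, adjusted p = 2.62e-04).

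Cyp4v3 averaged 15.2 ± 0.76 CPM in SMC2, 24.6 ± 1.57 in SMC1, 28 ± 4.5 in Intermediate and 33.7 ± 2.82 in Progenitor (SD, n = 3 each), and was lower in SMC2 than in Progenitor by -1.15 ± 0.16 (edgeR, adjusted p = 4.74e-06). Cyp4f14, a leukotriene hydroxylase of liver, averaged 0.629, 1.84, 0.461 and 0.368 CPM in SMC2, SMC1, Intermediate and Progenitor and was higher in SMC1 than in Progenitor by 2.28 ± 0.48 (edgeR, adjusted p = 4.88e-04). Its change of -1.55 in SMC2 minus SMC1 was lost without SMC2 replicate 2 (edgeR, adjusted p = 0.054). Cyp4f13 averaged 20.2 ± 2.41 CPM in SMC2 and 14.1 ± 1.68 in Progenitor, a change of 0.51 that was lost under 9 of 18 alternatives, namely with no filter and without any 1 of the SMC2 or SMC1 libraries or Progenitor replicate 2 or 3 (edgeR, adjusted p = 0.0589 to 0.227). The symbol Cyp4x1os, which the search for Cyp symbols also takes, names an antisense RNA and not an enzyme, and it was too low to test.

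P450 families 5 and above act mainly on sterols, bile acid precursors, retinoic acid and vitamin D, and 12 of 18 genes were tested. SMC1 had 0 higher and 7 lower than Progenitor, SMC2 had 2 higher and 5 lower than Progenitor, and SMC2 had 3 higher and 4 lower than SMC1. Background shares of all tested genes were 25.3% and 23.1%, 23.1% and 21.7%, and 16.5% and 18.1%, in this order. Cyp27a1, the mitochondrial sterol hydroxylase (chromosome 1, 74713574 to 74737892), had 6.9, 9.73 and 9.24 CPM in SMC2, 17.8, 16.7 and 17 in SMC1, 126, 122.6 and 95.9 in Intermediate, and 133.3, 104.8 and 99.9 in Progenitor. Intermediate and Progenitor overlapped, and SMC1 and SMC2 formed separate lower steps. In edgeR's test the change was -3.71 ± 0.19 for SMC2 minus Progenitor (adjusted p = 2.31e-12) and -2.71 ± 0.18 for SMC1 minus Progenitor (1.02e-10). SMC2 was also called lower than SMC1 (edgeR, adjusted p = 1.81e-04).

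Cyp7b1, which hydroxylates oxysterols further, had the reverse order of the smooth muscle populations. It had 26.3, 19.6 and 19 CPM in SMC2, 3.31, 1.73 and 2.69 in SMC1, 6.59, 4.08 and 5.94 in Intermediate, and 14.9, 10.3 and 12.1 in Progenitor. The populations did not overlap, and SMC2 exceeded SMC1 by 3.07 ± 0.26 (edgeR, adjusted p = 1.35e-08). SMC2 also exceeded Progenitor, by 0.80 ± 0.23 (edgeR, adjusted p = 0.00764), but not without SMC2 replicate 1 (0.107). Cyp39a1, another oxysterol hydroxylase, averaged 9.99 ± 1.56 CPM in SMC2, 16.2 ± 1.45 in SMC1, 27.7 ± 4.01 in Intermediate and 33.2 ± 11.9 in Progenitor (SD, n = 3 each), and fell by 1.74 in SMC2 against Progenitor. Cyp20a1, a P450 with no known main substrate, averaged 59.2, 50.6, 121 and 112.5 CPM in SMC2, SMC1, Intermediate and Progenitor, and was lower in both smooth muscle populations than in Progenitor. Cyp51, the lanosterol demethylase of cholesterol synthesis, averaged 41.8 ± 6.3, 62.8 ± 6.78, 38 ± 4.54 and 52.4 ± 6.25 CPM in the same order. It was lower in SMC2 than in SMC1 by -0.59 ± 0.16 (edgeR, adjusted p = 0.00795), and its change of -0.46 in Intermediate minus Progenitor was lost with the replicate number as a block (0.0529) and under 6 other alternatives. Those were the fit with no filter (edgeR, adjusted p = 0.0937) and the fits without Intermediate replicate 1, 2 or 3 or Progenitor replicate 1 or 3 (0.0579 to 0.224).

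**Figure D4:**
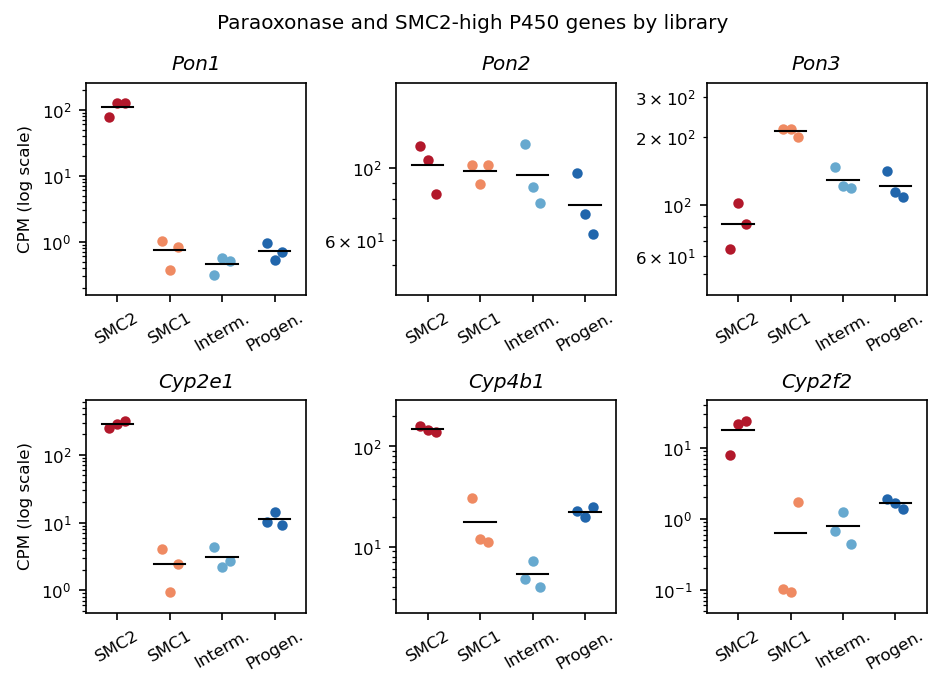
Level of Pon1, Pon2, Pon3, Cyp2e1, Cyp4b1 and Cyp2f2 in CPM (log axis) in every library (points) with the mean of 3 (bar), for SMC2, SMC1, Intermediate and Progenitor from left to right. SMC2 stands above the other populations for Pon1, Cyp2e1, Cyp4b1 and Cyp2f2 and below them for Pon3.

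The Aldh1a group includes the enzymes that make retinoic acid from retinaldehyde, and its genes were largely genes of Intermediate and Progenitor. All 4 were lower in SMC1 than in Progenitor (background 23.1%), and SMC2 had 1 higher and 3 lower than Progenitor (background 23.1% and 21.7%). Aldh1a1 (chromosome 19, 20492715 to 20643465) had 55.8, 66.9 and 60.5 CPM in SMC2, 18.3, 12.3 and 10.7 in SMC1, 605.8, 581.7 and 615.4 in Intermediate, and 404.6, 329.1 and 360.2 in Progenitor. No populations overlapped, and every pair was called. In edgeR's test the change was -4.73 ± 0.22 for SMC1 minus Progenitor (adjusted p = 8.95e-13), 2.15 ± 0.20 for SMC2 minus SMC1 (3.92e-08) and 0.72 ± 0.18 for Intermediate minus Progenitor (0.00768).

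Aldh1a3 peaked in Progenitor instead, with 1.47, 2.27 and 2.88 CPM in SMC2, 2.29, 1.45 and 0.82 in SMC1, 7.21, 10.4 and 7.73 in Intermediate, and 38.2, 46.4 and 32.6 in Progenitor. Intermediate was below Progenitor by -2.21 ± 0.26 (edgeR, adjusted p = 4.69e-06), and the smooth muscle populations overlapped each other below both. Aldh1a2, the main source of retinoic acid in the embryo, averaged 1.58 ± 1.06 CPM in SMC2, 2.09 ± 0.515 in SMC1, 14.2 ± 5.71 in Intermediate and 22.6 ± 3.67 in Progenitor (SD, n = 3 each). It was lower than in Progenitor by -3.86 in SMC2 and by -3.43 in SMC1, and was not called in the other main comparisons. Aldh1a7, a rodent relative of Aldh1a1, averaged 1.59 ± 0.372, 0.214 ± 0.106, 2.56 ± 0.424 and 0.75 ± 0.0643 CPM in SMC2, SMC1, Intermediate and Progenitor. It was higher in Intermediate than in Progenitor by 1.76 ± 0.41 (edgeR, adjusted p = 0.00384), and its call in SMC2 against Progenitor was lost under 16 of 18 alternatives, including the fit without any 1 of the 12 libraries (edgeR, adjusted p = 0.0521 to 0.139).

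The wider list of retinoid handling holds 13 genes, all tested. Of these, SMC2 had 3 higher and 4 lower than SMC1, Intermediate had 2 higher and 2 lower than Progenitor, SMC1 had 3 higher and 6 lower than Progenitor, and SMC2 had 1 higher and 7 lower than Progenitor. For all tested genes the shares were 16.5% and 18.1%, 12.7% and 9.46%, 25.3% and 23.1%, and 23.1% and 21.7%, in this order. The counts between Intermediate and Progenitor, the 3 higher in SMC2 than in SMC1 and the 3 higher in SMC1 than in Progenitor lie near these shares. Cyp26b1, a P450 that breaks down retinoic acid, averaged 0.978 ± 0.264 CPM in SMC2, 4.46 ± 0.783 in SMC1, 8.36 ± 2.23 in Intermediate and 2.46 ± 1.55 in Progenitor (SD, n = 3 each). It rose by 1.80 ± 0.41 in Intermediate over Progenitor (edgeR, adjusted p = 0.00339) and fell by 2.20 ± 0.44 in SMC2 against SMC1 (5.81e-04). Adh1, which oxidises retinol, averaged 36.8 ± 8.45, 3.74 ± 1.81, 89.9 ± 3.67 and 247.1 ± 80.9 CPM in SMC2, SMC1, Intermediate and Progenitor, with SMC1 lowest as for Aldh1a1. The retinol dehydrogenase Rdh10 averaged 23.4, 19.7, 55.5 and 57.5 CPM in these populations and was lower than in Progenitor in both smooth muscle populations. The carrier gene Rbp4 was lower in SMC2 than in SMC1, by -2.84.

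Of the 17 other aldehyde dehydrogenase genes, all were tested, with 6 higher and 3 lower in SMC2 than in SMC1, 4 higher and 2 lower in Intermediate than in Progenitor, 4 higher and 5 lower in SMC1 than in Progenitor, and 4 higher and 4 lower in SMC2 than in Progenitor. For all tested genes the shares were 16.5% and 18.1%, 12.7% and 9.46%, 25.3% and 23.1%, and 23.1% and 21.7%, in this order. The counts of SMC1 and SMC2 against Progenitor, and those lower in the first 2 comparisons, lie near these shares. Aldh3a1, best known as an abundant protein of the cornea, had 0.46, 1.04 and 2.16 CPM in SMC2, 2.44, 2.28 and 2.4 in SMC1, 84.8, 49.1 and 40.2 in Intermediate, and 5.79, 11.8 and 7.07 in Progenitor. The Intermediate libraries were all at 40.2 CPM or more and the other libraries at 11.8 CPM or less. The change was 2.83 ± 0.36 for Intermediate minus Progenitor (edgeR, adjusted p = 3.50e-05), and -2.79 for SMC2 minus Progenitor, or -3.52 without SMC2 replicate 3.

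Aldh2, the mitochondrial enzyme that clears acetaldehyde, was the most abundant of these genes per kilobase. It had 296.5, 294.7 and 272.6 CPM in SMC2, 601.6, 476.2 and 579.7 in SMC1, 485.1, 415.1 and 371 in Intermediate, and 296.5, 391.5 and 387.3 in Progenitor. SMC2 was below SMC1 by -0.94 ± 0.18 (edgeR, adjusted p = 2.71e-04), and SMC1 was above Progenitor by 0.62 ± 0.18 (0.00611), a call lost without SMC1 replicate 1 (0.0622). Aldh18a1, which starts proline synthesis, averaged 88 ± 25.8 CPM in SMC2, 36.6 ± 4.45 in SMC1, 138.1 ± 18.3 in Intermediate and 85.8 ± 17.7 in Progenitor (SD, n = 3 each). It was higher in SMC2 than in SMC1 by 1.27 ± 0.20 (edgeR, adjusted p = 4.38e-05), while its change of 0.69 in Intermediate minus Progenitor was lost without Intermediate replicate 1 (0.0743), Progenitor replicate 1 (0.0641) or Progenitor replicate 2 (0.0786).

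Aldh1l2, the mitochondrial formyltetrahydrofolate dehydrogenase, averaged 14.9 ± 3.51 CPM in SMC2, 19.9 ± 2.67 in SMC1, 59.6 ± 5.97 in Intermediate and 28.3 ± 8.45 in Progenitor, with a change of 1.08 ± 0.20 for Intermediate minus Progenitor (edgeR, adjusted p = 6.18e-04), and 14.1% of its exon bases lie in an overlapping gene. Aldh3b1, which oxidises lipid aldehydes, averaged 19.2 ± 2.7 CPM in SMC2, 5.65 ± 1.06 in SMC1, 8.56 ± 0.455 in Intermediate and 20.3 ± 3.2 in Progenitor (SD, n = 3 each), and was higher in SMC2 than in SMC1 by 1.76 ± 0.20 (edgeR, adjusted p = 4.59e-07). Aldh6a1, of valine breakdown, was higher than in Progenitor in SMC2 (0.71) and in SMC1 (0.66), although 18.6% of its exon bases lie in an overlapping gene. Aldh7a1, of lysine breakdown, averaged 41 ± 1.7, 69.7 ± 7.13, 68.4 ± 7.56 and 77.9 ± 3.34 CPM in SMC2, SMC1, Intermediate and Progenitor and was lower in SMC2 than in each of the others. Aldh9a1, of carnitine synthesis, averaged 55.3, 37.7, 38.5 and 41 CPM in the same populations, and its call in SMC2 against SMC1 (0.55) was lost under 3 alternatives, 2 of which left out SMC1 replicate 2 (edgeR, adjusted p = 0.0714) or SMC2 replicate 1 (0.0793). Aldh1b1, a mitochondrial relative of Aldh2, averaged 0.639 ± 0.116, 1.91 ± 1.1, 0.42 ± 0.0786 and 0.712 ± 0.371 CPM in SMC2, SMC1, Intermediate and Progenitor. Its calls in SMC2 minus SMC1 (-1.56) and SMC1 minus Progenitor (1.40) were lost without SMC1 replicate 3 (edgeR, adjusted p = 0.187 and 0.285), where the change over Progenitor was 0.80. The SMC2 minus SMC1 call was also lost without SMC2 replicate 1 (0.0562) or 2 (0.0518). The SMC1 minus Progenitor call was also lost with upper-quartile factors (edgeR, adjusted p = 0.0619) and without SMC1 replicate 1 (0.0538) or Progenitor replicate 1 (0.0662) or 2 (0.118). Aldh3a2, of fatty aldehyde oxidation, and Aldh16a1 were not called in any of the 4 main comparisons.

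The alpha class of glutathione transferases had 2 genes above the filter. Gsta4, which conjugates the lipid peroxidation product hydroxynonenal (chromosome 9, 78182774 to 78209349), had 45.4, 35 and 35.6 CPM in SMC2, 3.77, 3.82 and 2.93 in SMC1, 24.4, 20.9 and 21.5 in Intermediate, and 40.2, 31.3 and 23.3 in Progenitor. SMC1 stood alone at the low end, below SMC2 and Progenitor. The change was 3.46 ± 0.22 for SMC2 minus SMC1 (edgeR, adjusted p = 2.24e-10) and -3.17 ± 0.22 for SMC1 minus Progenitor (1.44e-10). Intermediate minus Progenitor, at -0.51 ± 0.19, was not called (edgeR, adjusted p = 0.0601), but was called with the replicate number as a block (0.0347) and under 11 other alternatives. Gsta3, an isomerase of steroid synthesis in several mammals, was lowest in SMC1 too, with 6.76, 5.98 and 11.2 CPM in SMC2, 2.29, 1.87 and 1.35 in SMC1, 45, 45.2 and 60.5 in Intermediate, and 47.5, 33.5 and 38.2 in Progenitor. It was lower than in Progenitor by -2.33 ± 0.23 in SMC2 (edgeR, adjusted p = 4.74e-08) and by -4.43 ± 0.27 in SMC1 (3.26e-11).

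The mu class differed from the alpha class in the smooth muscle populations. Of 6 tested Gstm genes, 0 were higher and 4 lower in SMC2 than in SMC1 (background 16.5% and 18.1%). Between Intermediate and Progenitor, 0 were higher and 2 lower in Intermediate (background 12.7% and 9.46%). Gstm1 had 499.7, 580.6 and 527.6 CPM in SMC2, 946.7, 734.5 and 1205 in SMC1, 1147, 717.1 and 592.1 in Intermediate, and 651.4, 742.5 and 580.6 in Progenitor, and its SMC2 libraries were at or below the lowest of the others. It shares 18.9% of its 50-base stretches with related transcripts, so reads may be split. SMC2 was below SMC1 by -0.84 ± 0.23 (edgeR, adjusted p = 0.00702), and SMC1 minus Progenitor, at 0.55 ± 0.23, missed the threshold (0.0546) and was called under 3 of 18 alternatives. Gstm2 averaged 129.4 ± 16.5, 319.8 ± 25.5, 304.2 ± 57.7 and 287.3 ± 36.1 CPM in SMC2, SMC1, Intermediate and Progenitor (SD, n = 3 each), lower in SMC2 than in each of the others.

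Gstm7 was a gene of SMC1, with 3.82, 9.14 and 6.3 CPM in SMC2, 33.1, 40.8 and 39.2 in SMC1, 8.26, 7.6 and 8.56 in Intermediate, and 11.5, 11.8 and 12.8 in Progenitor. Its change was -2.55 ± 0.23 for SMC2 minus SMC1 (edgeR, adjusted p = 3.18e-08) and 1.65 ± 0.22 for SMC1 minus Progenitor (2.87e-06). Gstm7, Aldh2, Aldh1b1, Cyp4f14 and Pon3 were lower in SMC2 than in SMC1 and higher in SMC1 than in Progenitor. Most pericyte markers moved the same way in both comparisons. Most endothelial markers did so between SMC2 and SMC1, but they were mixed between SMC1 and Progenitor. The 6 endothelial markers summed to 45.8 to 113.1 CPM in SMC2, 269.9 to 344.3 in SMC1, 87.6 to 116.2 in Intermediate and 168.9 to 211.6 in Progenitor, with 5 lower in SMC2 than in SMC1, and 3 higher and 1 lower in SMC1 than in Progenitor. The 5 pericyte markers summed to 1109 to 1426, 2329 to 2960, 540.2 to 563.8 and 166.7 to 260.7 CPM in the same populations, with 4 lower and 1 higher in SMC2 than in SMC1, and 5 higher in SMC1 than in Progenitor. Of all tested genes, 16.5% were higher and 18.1% lower in SMC2 than in SMC1, and 25.3% were higher and 23.1% lower in SMC1 than in Progenitor. No marker of either list was at 0 in a population, and their part in the enzyme levels was not tested. Gstm5 was a gene of Progenitor, with 23.9, 26.6 and 34 CPM in SMC2, 57.9, 47.3 and 35.1 in SMC1, 57.6, 66.1 and 62.5 in Intermediate, and 184.3, 180.2 and 145.3 in Progenitor. It was lower than in Progenitor by -2.59 ± 0.19 in SMC2 (edgeR, adjusted p = 6.08e-10), -1.86 ± 0.19 in SMC1 (5.90e-08) and -1.45 ± 0.19 in Intermediate (1.06e-05). A gene model on the other strand covers 13.9% of its exon bases, and the library kit does not mark strand. Gstm4 averaged 12.2, 16.4, 16.9 and 25.6 CPM in SMC2, SMC1, Intermediate and Progenitor. Its change of -0.60 in Intermediate minus Progenitor was lost without Intermediate replicate 2 (edgeR, adjusted p = 0.0772), Intermediate replicate 3 (0.0886) or Progenitor replicate 3 (0.0516).

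**Figure D5:**
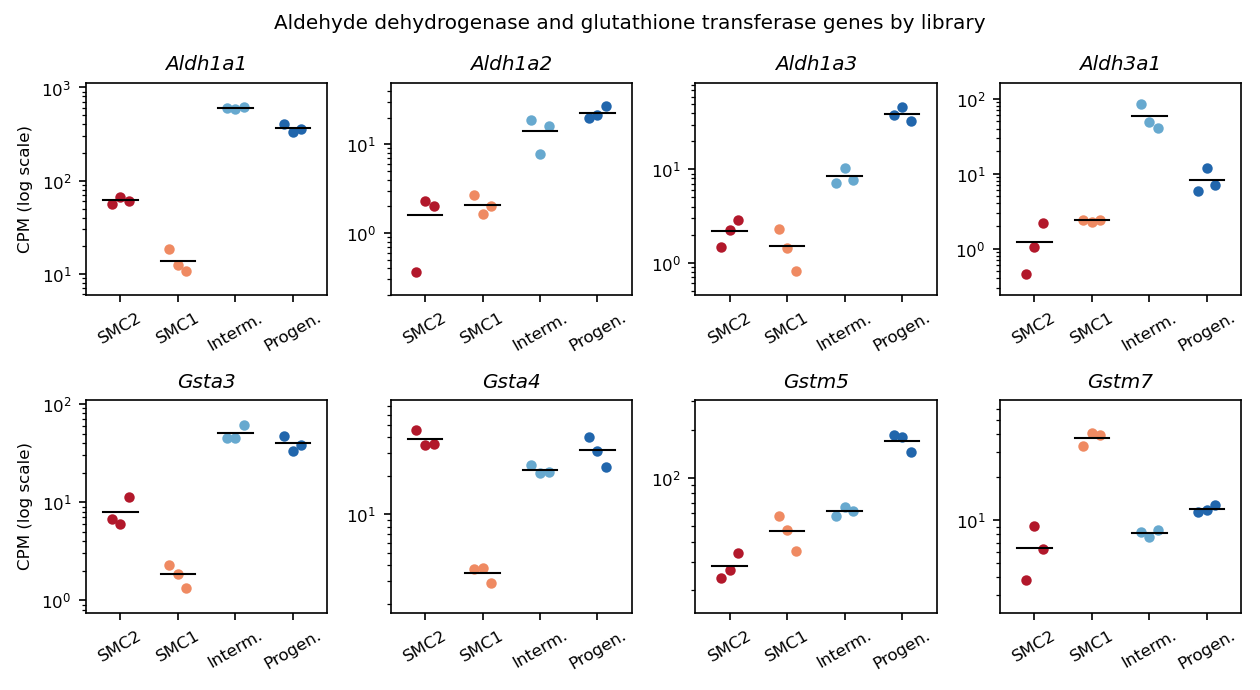
Level of 4 aldehyde dehydrogenase and 4 glutathione transferase genes in CPM (log axis) in every library (points) with the mean of 3 (bar), for SMC2, SMC1, Intermediate and Progenitor from left to right. Gsta4 and Aldh1a1 are lowest in SMC1, Gstm7 is highest in SMC1, Aldh3a1 in Intermediate, and Aldh1a3 and Gstm5 in Progenitor.

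Of 8 tested genes of the theta, pi and omega classes, 0 were higher and 5 lower in SMC1 than in Progenitor, 0 higher and 3 lower in SMC2 than in Progenitor, and 2 higher and 2 lower in SMC2 than in SMC1. Background shares were 25.3% and 23.1%, 23.1% and 21.7%, and 16.5% and 18.1%, in this order. Gstt1, the main theta form, had 42.5, 55 and 59.6 CPM in SMC2, 118.1, 99.5 and 95.9 in SMC1, 204.2, 207.3 and 190.8 in Intermediate, and 256.6, 196.2 and 175.7 in Progenitor. SMC2 was lowest and SMC1 next, and both were called lower than Progenitor (edgeR, adjusted p = 1.10e-08 for SMC2 and 8.38e-05 for SMC1). SMC2 was lower than Intermediate by -1.94 ± 0.18 (edgeR, adjusted p = 1.66e-08), and Intermediate overlapped Progenitor. Gstt3 was lower in SMC2 than in SMC1 by -1.34 ± 0.24 (edgeR, adjusted p = 1.74e-04). Gstt2 was higher there by 0.49, a call lost under 6 alternatives, among them the fits without SMC1 replicate 2 (0.114), SMC1 replicate 3 (0.118), SMC2 replicate 1 (0.0675), SMC2 replicate 3 (0.0817) or Intermediate replicate 2 (0.0506). Gstp1, an abundant transferase of many tissues, averaged 292.7 ± 37.5, 286.8 ± 46.5, 294.8 ± 46.1 and 249.6 ± 20.1 CPM in SMC2, SMC1, Intermediate and Progenitor (SD, n = 3 each) and was called in no comparison. It shares 33.7% of its 50-base stretches with Gstp2 and a pseudogene. Gsto1, which reduces dehydroascorbate, averaged 20.7 to 25.5 CPM and was called in no comparison.

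P450 enzymes depend on electron donors, and 7 donor genes were matched and tested, from a list of 9 symbols. The symbols without a match were Fdx1l and Fdx2. Por, the reductase that serves all microsomal P450 enzymes, averaged 95.8 ± 1.12 CPM in SMC2, 202.4 ± 44.5 in SMC1, 418.4 ± 73.9 in Intermediate and 281.5 ± 46.3 in Progenitor (SD, n = 3 each). Its change was -1.55 in SMC2 minus Progenitor (edgeR, adjusted p = 1.15e-06), -1.08 in SMC2 minus SMC1 (1.59e-04) and 0.57 in Intermediate minus Progenitor (0.0363). Por was thus lowest in SMC2, where Cyp2e1 and Cyp4b1 were highest. Cyb5r3, a cytochrome b5 reductase, averaged 652.7 ± 123.9, 1270 ± 136.5, 484.2 ± 108.2 and 245 ± 26.8 CPM in SMC2, SMC1, Intermediate and Progenitor. By count, 0 donor genes were higher and 3 lower in SMC2 than in SMC1, 3 higher and 1 lower in Intermediate than in Progenitor, 3 higher and 3 lower in SMC1 than in Progenitor, and 3 higher and 2 lower in SMC2 than in Progenitor. Background shares were 16.5% and 18.1%, 12.7% and 9.46%, 25.3% and 23.1%, and 23.1% and 21.7%, in this order.

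Among 12 tested of 13 sensors and responders of foreign compounds and oxidants, 3 were higher and 3 lower in SMC2 than in SMC1, 2 higher and 1 lower in Intermediate than in Progenitor, 2 higher and 4 lower in SMC1 than in Progenitor, and 2 higher and 4 lower in SMC2 than in Progenitor. For a list this short, these counts lie near the shares of all tested genes. Those shares were 16.5% and 18.1%, 12.7% and 9.46%, 25.3% and 23.1%, and 23.1% and 21.7%, in this order. Tiparp, a target and repressor of the aryl hydrocarbon receptor, averaged 516.2 ± 100.2 CPM in SMC2, 64.7 ± 6.71 in SMC1, 205.4 ± 26.1 in Intermediate and 239 ± 34.4 in Progenitor (SD, n = 3 each), higher in SMC2 than in Progenitor by 1.11 (edgeR, adjusted p = 4.15e-05) and lower in SMC1 than in Progenitor by -1.88 (5.08e-08). Cyp1b1, a target of the same receptor, was low in both smooth muscle populations, unlike Tiparp in SMC2 but like Tiparp in SMC1. The quinone reductase Nqo1 averaged 25.1 ± 2.83, 58.8 ± 6.23, 8.97 ± 0.634 and 12 ± 0.68 CPM in SMC2, SMC1, Intermediate and Progenitor, and was higher than in Progenitor by 1.07 in SMC2 and 2.29 in SMC1. The receptor gene Ahr itself, at 4.84 to 11.7 CPM on average, was not called in any of the 4 main comparisons. Against Intermediate, Ahr was higher in SMC1 by 1.27 (edgeR, adjusted p = 0.00244) and in SMC2 by 0.99 (0.013).

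A further 30 tested genes fell outside the rule for naming, and all had means below 20 CPM in every population. Between Intermediate and Progenitor, Cyp4f17 and Aldh4a1 were higher and Cyp3a13 and Aldh1l1 lower in Intermediate, and the other genes of this group were not called. The highest of them, Aldh4a1, averaged 15.6 CPM in SMC2 and 6.26 in Progenitor, but 32.5% of its exon bases lie in another gene model and 30% of its 50-base stretches occur elsewhere, so its value is uncertain. Of the 58 genes too low to test, 38 were in P450 families 1 to 3, and the highest mean was 0.731 CPM, for Cyp7a1, the first enzyme of bile acid synthesis in liver. Their summed level was 3.54, 11.6 and 23.6 CPM in SMC2, 3.31, 6.2 and 7.15 in SMC1, 3.11, 3.33 and 9.71 in Intermediate, and 10, 10.1 and 14.9 in Progenitor, and 30 of them had their highest mean in SMC2 and 25 in Progenitor. The highest of these sums was in SMC2 replicate 3, the library with the most counts in genes too low to test.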

How the data were processed

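Libraries were built from poly(A) RNA with a SMART-Seq v4 low-input kit, per the labels' protocols. Per the submitters' processing notes, the tools included DESeq2 (1.26.0) and STAR (2.5.2a), and the build named is mm10; the counting program and its annotation are not given in the sources used here. The authors deposited raw read counts per gene, whose whole numbers were used as deposited. The other deposited tables were not used here, and a few genes are not reported here. The genes and pathway lists were chosen with earlier results of these data known.

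The test was run in R 4.3.3 with edgeR 4.0.16 over all 12 libraries: filterByExpr (19016 genes), TMM factors, a mean per population, robust dispersions, the two-sided quasi-likelihood F test and Benjamini-Hochberg adjustment over all genes at 0.05, with 8 residual degrees of freedom. A standard error is the log2 change divided by the square root of F. Genes are described one by one if they reach a mean of 20 CPM in a population, are among the 4 highest or lowest called changes of a main comparison with at least 1 CPM, or are tested Fmo, Pon or Aldh1a genes (54 genes). Lengths, overlaps and coordinates come from GENCODE M21 (GRCm38), shared 50-base stretches from its transcripts, and promoters from RefSeq. The code was tested on simulated data.

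Same-numbered libraries of Intermediate and Progenitor deviated together (correlations 0.171, 0.191 and 0.17), so these numbers were taken to pair them, from the data and not from the labels. Other main comparisons had at least 1 correlation under 0.1. The reported fit has no block. Replicates differed by more than sampling noise (chi-square per degree of freedom at least 8.17). Alternatives were DESeq2 1.42.0, median-of-ratios and upper-quartile factors, no filter, only the 2 groups compared, the replicate number as a block, and leaving out each library. Depth sets the precision of low genes, and amplified reads are not independent molecules.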

Additional observations from a re-analysis of the deposited data

How the results depend on the processing

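The total counts of called genes, both directions together, stayed within 1.5 times of the reported ones under all 18 alternatives. By direction, 3 counts moved further: the genes higher in SMC1 than in Progenitor, 10 as reported and 5 without SMC1 replicate 1, and the genes lower in Intermediate than in Progenitor, under the 2 settings given below. Leaving out each library gave 41 to 48 called genes in SMC2 minus SMC1 (46 reported), 20 to 26 in Intermediate minus Progenitor (24), 41 to 48 in SMC1 minus Progenitor (47), 41 to 48 in SMC2 minus Progenitor (49), 39 to 44 in SMC1 minus Intermediate (43) and 45 to 51 in SMC2 minus Intermediate (51). With the replicate number as a block, the counts were 48, 25, 51, 51, 44 and 53 in the same order of comparisons. Besides the call of Cyp51 given above, the block lost no call between Intermediate and Progenitor among the 54 described genes. DESeq2 called 47, 25, 49, 48, 44 and 51. The alternatives for the last 2 comparisons were added after seeing the data.

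The split between Intermediate and Progenitor depended on the scaling: 14 higher and 10 lower as reported, 13 and 17 with upper-quartile factors, which moved the median of all genes to -0.08, against 0.08 as reported, and 13 and 16 with only the 2 groups fitted. The upper-quartile median was 0.11 in SMC2 minus SMC1 and -0.19 in SMC1 minus Progenitor, where 41.3% of all called genes were then higher, against 52.3% as reported. Of 205 calls on the described genes, 177 were kept under every alternative, 28 were lost under at least 1, mostly changes below 1 on the log2 scale, and 0 turned round. Depth limits the 58 untested genes, and 5 tested genes share over 20% of their 50-base stretches with another gene.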

Other observations

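Of 13 tested genes of glutathione supply and related transferases, 4 were higher and 2 lower in SMC2 than in SMC1, 1 higher and 4 lower in Intermediate than in Progenitor, 4 higher and 4 lower in SMC1 than in Progenitor, and 5 higher and 4 lower in SMC2 than in Progenitor. Shares of all tested genes were 16.5% and 18.1%, 12.7% and 9.46%, 25.3% and 23.1%, and 23.1% and 21.7%, in this order. The counts in SMC1 against Progenitor lie near them. Mgst3, a microsomal transferase, averaged 265.6 ± 48.2 CPM in SMC2, 40.7 ± 12.5 in SMC1, 14.9 ± 1.29 in Intermediate and 32 ± 2.5 in Progenitor (SD, n = 3 each), higher in SMC2 than in SMC1 by 2.70 (edgeR, adjusted p = 2.96e-09). Mgst1 averaged 134.7 ± 19.9, 41.1 ± 10.8, 218.1 ± 45.5 and 778.5 ± 127.9 CPM in SMC2, SMC1, Intermediate and Progenitor, lowest in SMC1 as Gsta3 and Gsta4 were. Gsr, which regenerates glutathione, was highest in SMC1, at 120.8 ± 7.01 CPM, against 39.5 ± 0.743 in Progenitor, a change of 1.61 (edgeR, adjusted p = 1.68e-08). Gclc, the catalytic subunit that limits glutathione synthesis, averaged 83.7, 90.4, 262.4 and 221 CPM in SMC2, SMC1, Intermediate and Progenitor, while its modifier Gclm averaged 41.3, 42.9, 28 and 21.9 CPM. In both smooth muscle populations against Progenitor, Gclc was lower and Gclm higher.

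Of 14 genes of epoxide hydrolysis and other conjugation, 11 were tested, with 4 higher and 1 lower in SMC2 than in SMC1, 1 higher and 4 lower in Intermediate than in Progenitor, 0 higher and 7 lower in SMC1 than in Progenitor, and 1 higher and 7 lower in SMC2 than in Progenitor. The same background shares apply: 16.5% and 18.1%, 12.7% and 9.46%, 25.3% and 23.1%, and 23.1% and 21.7%. Ephx2, the soluble epoxide hydrolase that acts on products of P450 epoxygenases, averaged 75.3 ± 11.1 CPM in SMC2, 5.84 ± 0.682 in SMC1, 12.8 ± 2.1 in Intermediate and 22.5 ± 4.77 in Progenitor (SD, n = 3 each), higher in SMC2 than in SMC1 by 3.69 (edgeR, adjusted p = 3.30e-11). Sult5a1, a sulfotransferase, averaged 3.95 ± 1.55, 1.48 ± 0.219, 88.8 ± 5.8 and 113.8 ± 11.5 CPM in SMC2, SMC1, Intermediate and Progenitor, and the nicotinamide methyltransferase Nnmt averaged 12.3 ± 2.3, 1.88 ± 0.532, 48.3 ± 2.28 and 45.5 ± 4.9 CPM. Both were lower in SMC1 than in Progenitor, by -6.25 and -4.59, and both were higher in SMC2 than in SMC1, by 1.39 and 2.69.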
